A study of Mus musculus with 18 samples.

Results

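The 89 cytosolic ribosomal protein genes of the mouse heart were described across control mice, mice with myocardial infarction (MI) and mice of an HXP group. Members were the protein-coding genes of the GENCODE M21 annotation whose symbol is Rpl or Rps followed by a digit, together with Rplp0, Rplp1, Rplp2 and Rpsa, leaving out symbols that start with Rps6k. The annotation holds 92 such genes, and 89 were among the 34150 genes of the deposited files (Rpl10l, Rpl36-ps4 and Rpl9-ps1 were not analysed here). By role, 43 encode proteins of the large subunit, 31 proteins of the small subunit and 3 the acidic stalk of the large subunit. A further 7 are paralogs of other members, and 4 are annotated as protein-coding under a pseudogene-style symbol. The rule also took in Rps19bp1, which encodes a protein that binds Rps19 and is not a ribosomal protein.

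Hearts of 6 MI, 6 HXP and 6 control mice gave 18 libraries of total RNA after removal of ribosomal RNA. Per the title of the series, HXP was a treatment of mice with acute MI. The sources used here do not give what HXP stands for, its dose, the times of infarction, treatment and sampling, the heart region, what the control mice received, or the strain, sex and age of the mice. Nothing states how the libraries of 1 group relate to each other, so each p-value refers to the spread among these libraries, part of which may be technical.

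The ribosome is built from ribosomal RNA and about one protein per gene of this set, in a small subunit that decodes the message and a large subunit that joins amino acids. Mammalian ribosomal protein mRNAs, and those of several translation factors, begin with a C followed by a run of pyrimidines, the 5′ terminal oligopyrimidine (TOP) motif, through which mTOR signalling and the binding protein LARP1 set their translation and stability. In adult heart and skeletal muscle, part of the ribosomes carry Rpl3l in place of its paralog Rpl3 at the same position in the large subunit.

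A pyrimidine tract near the annotated start was more frequent among the starts of members than among those of all genes (46.8% and 19.2% of starts). The starts below are 30 bases on the transcript strand beginning 10 bases before the annotated start, from RefSeq on GRCm38.p6, and capitals mark the first C followed by at least 5 further C or T letters that begins within 10 bases of the annotated start. The 5 genes with a tract are a kinase target of the small subunit (Rps6), a stalk protein (Rplp2), 2 large-subunit proteins that were low in the library HXP 6 (Rpl13a and Rpl27a) and a member with a higher level in MI (Rpl39). Both annotated starts of Rpl3l are shown for contrast, since its level moved the other way from that of nearly all other members.

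Rps6 (chr4:86857348-86857377, minus strand): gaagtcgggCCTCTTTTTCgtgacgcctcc
Rpl13a (chr7:45128726-45128755, minus strand): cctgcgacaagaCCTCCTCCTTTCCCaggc
Rpl27a (chr7:109519185-109519214, plus strand): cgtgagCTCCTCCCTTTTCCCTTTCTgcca
Rplp2 (chr7:141447641-141447670, plus strand): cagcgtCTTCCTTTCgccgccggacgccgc
Rpl39 (chrX:37085203-37085232, minus strand): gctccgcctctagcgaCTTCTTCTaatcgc
Rpl3l (chr17:24727816-24727845, plus strand): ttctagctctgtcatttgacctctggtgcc
Rpl3l (chr17:24732675-24732704, plus strand): caacagctacagtgccccaaatgtcctgaa

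Such a tract was present at 36 of 77 RefSeq starts of 65 members, a share of 46.8%, and at 6302 of 32851 starts of all genes, a share of 19.2%. The windows of Rpl3l held none by this definition. A match describes letters in a window and is not evidence of a functional motif. The members also differed from the other genes in length, with a median merged exon length of 1730 bases against 3990 bases over all genes tested, while the median GC content was 51.2% against 50.1%.

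Values are FPKM, fragments per kilobase of exon scaled to the depth of the library, and each library held 75.8 to 81.1 M gene reads, recovered from the steps of the values. The cardiomyocyte markers summed to 10899 to 14321 FPKM in MI, 10041 to 17348 FPKM in HXP and 13206 to 14500 FPKM in control libraries, with none of the 8 at 0 in any library, which matches the heart label. The fibroblast and matrix markers summed to 433 to 2838 FPKM in MI, 90.2 to 2620 FPKM in HXP and 124 to 176 FPKM in control libraries. The macrophage markers summed to 235 to 1075 FPKM in MI, 101 to 986 FPKM in HXP and 156 to 218 FPKM in control libraries. All 8 fibroblast and matrix markers and all 8 macrophage markers were called higher in MI than in control, and 1 of 8 cardiomyocyte markers was called lower with the FPKM as deposited (median log2 fold change -0.34), against 5 of 8 with median-ratio scaling (median -0.74). Mitochondrial genes took 16.6% to 27.4% of the recovered reads in MI, 16.6% to 36.8% in HXP and 29.9% to 34.7% in control libraries. MI 5 also held 1167 FPKM of lung epithelium markers, against at most 0.628 FPKM in any other MI library, 0.493 FPKM in any HXP library and 0.180 FPKM in any control library. HXP 5 and HXP 6 stand apart from the other HXP libraries, as the stalk genes below show, so results that rest on MI 5, HXP 5 or HXP 6 are given with and without them.

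The members spanned a wide range of levels in every group. In control hearts 22 members reached 100 FPKM or more, 61 lay between 10 and 100 FPKM and 6 lay below 10 FPKM. Rplp1, a stalk protein that contacts translation factors, was the most abundant, with 746 ± 197 FPKM in MI, 480 ± 345 FPKM in HXP and 482 ± 35.5 FPKM in control libraries (mean ± SD, n = 6 each). In control libraries it stood above the next genes, Rps3a1 of the small subunit at 322 ± 25.8 FPKM, Rplp0, the stalk's base, at 319 ± 13.6 FPKM and Rps15 at 309 ± 33.4 FPKM, which did not differ from each other beyond their spread. At the low end lay Rps19bp1, at 4.92 ± 1.57 FPKM in MI, 3.90 ± 1.05 FPKM in HXP and 3.48 ± 0.835 FPKM in control libraries. Rpl39l, the paralog of Rpl39 known from testis, had at most 0.311 FPKM in MI, 0.357 FPKM in HXP and 0.138 FPKM in control libraries, and was the only member below the filter of a mean of 0.5 FPKM over all libraries. The other 88 members were tested.

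**Figure D1:**
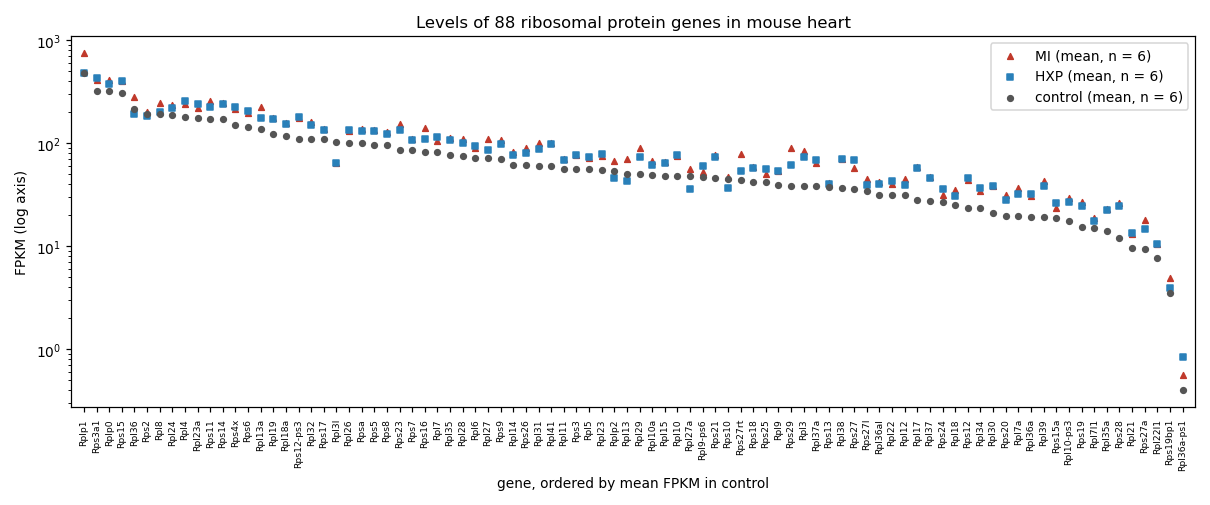
Mean FPKM on a log axis of the 88 tested members, ordered by their mean in control libraries, with MI as red triangles, HXP as blue squares and control as grey circles (means of 6 libraries each). Rplp1 is highest, nearly all members have their MI mean above their control mean, and Rpl3l has both its MI and HXP means below its control mean.

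MI hearts had higher FPKM of most ribosomal protein genes than control hearts, and a lower FPKM of Rpl3l. The summed level of the 89 members was 9719 ± 1709 FPKM in MI and 6934 ± 486 FPKM in control libraries, a ratio of 1.40, and the lowest MI library, at 7957 FPKM, was above the highest control library, at 7553 FPKM. As a share of all non-mitochondrial FPKM the members had 3.16% ± 0.44 in MI and 2.29% ± 0.15 in control libraries, again without overlap. As a share of non-mitochondrial reads, which gives long genes more weight, they had 1.92% ± 0.24 in MI and 1.59% ± 0.11 in control libraries, and here the lowest MI library, at 1.69%, lay below the highest control library, at 1.74%. By limma with Benjamini-Hochberg adjustment over 13710 genes, 49 of 88 members were higher in MI and 1, Rpl3l, was lower (adjusted p below 0.05). Of all genes 43.3% were called in this comparison, 40.1% higher and 3.21% lower, against 56.8% of the members. The called increases lay between 0.30 and 1.07 in log2 fold change of FPKM + 1, so that only Rpl3 and Rpl39 were past a 2-fold change. In bulk tissue, fewer cells of a type and less RNA per cell cannot be told apart.

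The size of the general increase depended on how the libraries were scaled. With the FPKM as deposited, the median log2 fold change was 0.46 over the members and 0.27 over all genes tested, a difference of 0.19. With median-ratio scaling between libraries the medians were 0.06 and -0.02, a difference of 0.08. Under that scaling 4 members were called, Rpl3, Rpl39 and Rpl10-ps3 higher and Rpl3l lower, beside 32.5% of all genes (2196 higher and 2212 lower, against 5494 higher and 440 lower as deposited). With quantile normalization 18 members were higher and 1 lower, beside 30.5% of all genes (1810 higher and 2371 lower), and with the GC correction 10 were higher and 1 lower, beside 31.6%. Over 6 treatments of the values (as deposited, the 3 other scalings, a length correction and a GC correction), 59 of the 88 members had a positive log2 fold change in all 6, Rpl3l had a negative one in all 6 and 28 changed sign. Rpl3, Rpl39, Rpl10-ps3 and Rpl3l were called in all 6, and 36 members in none. Values for single members are those of the FPKM as deposited unless another scaling is named, and of the members described singly below as called higher, Rpl5 was among the 28.

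Single libraries also set the number of calls. Without MI 5, the library with lung markers, 14 of 88 members were called, all higher, beside 19.1% of all genes. Rpl3, Rpl39 and Rpl10-ps3 were among the 14 while Rpl3l was not. Without MI 3 there were 21 calls, beside 30.7% of all genes, and without control 1 there were 31, beside 29.6%. Without MI 4 and MI 5 together there were none, for the members or for any gene. The libraries were also split here into runs of nearby library numbers, which are not all consecutive within a run. The sources used here do not state that these runs were batches. The last run, of 10 libraries, was the only one with several MI and several control libraries. Within it no member was called, beside 0.568% of all genes. The members' median log2 fold change there was 0.39, beside 0.21 over all genes.

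The large and the small subunit had similar medians. Among the 43 large-subunit genes 29 were called higher, with a median log2 fold change of 0.49. Among the 31 small-subunit genes 15 were called higher, with a median of 0.48. None of the 3 stalk genes was called (median 0.36). The summed level was 4229 ± 764 FPKM in MI and 2966 ± 207 FPKM in control libraries for the large subunit, and 3745 ± 639 FPKM in MI and 2702 ± 201 FPKM in control libraries for the small subunit. All 6 MI libraries lay above all 6 control libraries for 34 members, 18 of them of the large and 13 of the small subunit, where 27.9% of all genes tested did so. For no member did all MI libraries lie below all control libraries, where 1.39% of all genes did.

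Among the small-subunit genes, Rps6, the protein that S6 kinases phosphorylate, had a lowest, median and highest level of 163, 185 and 231 FPKM in MI and of 133, 141 and 156 FPKM in control libraries. All MI libraries were above all control libraries (log2 fold change 0.43, SE 0.13, limma adjusted p = 0.0222). Rpsa, which is also known as the laminin receptor precursor, had 117, 132 and 170 FPKM in MI and 91.1, 96.3 and 109 FPKM in control libraries, again without overlap (log2 fold change 0.46, limma adjusted p = 0.0263). Rps19, the small-subunit protein most often mutated in Diamond-Blackfan anaemia, had 17.1, 25.7 and 36.6 FPKM in MI and 12.8, 14.8 and 17.8 FPKM in control libraries. Its lowest MI library fell among the controls (log2 fold change 0.74, limma adjusted p = 0.0166). Rps28 had one of the largest changes, with 9.89, 24.5 and 46.5 FPKM in MI and 6.68, 11.99 and 15.9 FPKM in control libraries, and here too MI 4 lay within the control range (log2 fold change 0.97, limma adjusted p = 0.0235). At the other end Rps2 had 174, 194 and 259 FPKM in MI and 170, 185 and 241 FPKM in control libraries, and Rps10 and Rps13 differed as little (log2 fold changes 0.07, 0.07 and 0.11, none called). The calls of Rps6, Rpsa and Rps28 were lost without MI 5, and those of Rpsa and Rps28 also without MI 3.

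Among the large-subunit genes, Rpl4 had 193, 237 and 282 FPKM in MI and 168, 179 and 186 FPKM in control libraries, with no overlap (log2 fold change 0.42, limma adjusted p = 0.0223). Rpl5, which with Rpl11 and 5S RNA binds the p53 regulator Mdm2, had 61.2, 69.5 and 85.7 FPKM in MI and 51.8, 55.5 and 59.4 FPKM in control libraries, also with no overlap (log2 fold change 0.36, limma adjusted p = 0.0311). Rpl11 itself overlapped between the groups, with 54.3, 64.4 and 104 FPKM in MI and 51.4, 54.0 and 62.9 FPKM in control libraries, and was not called (log2 fold change 0.28, limma adjusted p = 0.128). Rpl39, a very small protein that lines the peptide exit tunnel, had 18.6, 40.6 and 78.0 FPKM in MI and 14.6, 18.7 and 24.4 FPKM in control libraries. MI 4 was the 1 MI library inside the control range (log2 fold change 1.02, SE 0.30, limma adjusted p = 0.0178). Rpl10-ps3, a protein-coding locus with a pseudogene-style symbol, had 20.8, 28.4 and 40.8 FPKM in MI and 15.1, 16.6 and 21.3 FPKM in control libraries, with MI 6 inside the control range (log2 fold change 0.71, SE 0.20, limma adjusted p = 0.0158). Its reads may be shared with Rpl10 and its copies, so its level is uncertain. The calls of Rpl39 and Rpl10-ps3 held when any single library was left out, while that of Rpl4 was lost without MI 5 and that of Rpl5 without MI 2, MI 3, MI 5, control 1, control 5 or control 6.

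Rpl29 had the highest log2 fold change of all members in this comparison and was not called. Its level was 77.5, 89.4 and 105 FPKM (lowest, median and highest) in MI libraries, against 2.66 and 4.07 FPKM in control 3 and control 4 and 64.9 to 81.2 FPKM in the other 4 control libraries. The fitted difference of 1.66 on the log2 scale (SE 0.73, adjusted p = 0.0697 by limma) therefore rests on 2 control libraries. Rps29 was also past a 2-fold change without being called (log2 fold change 1.04, limma adjusted p = 0.0582), with 37.8 to 199 FPKM in MI and 25.4 to 50.5 FPKM in control libraries.

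Rpl3 and Rpl3l moved in opposite directions in MI hearts, and the balance of the pair differed from control in every MI and every HXP library. Rpl3 is encoded at chr15:80077791-80091868 on the minus strand and Rpl3l at chr17:24727820-24736143 on the plus strand (GENCODE M21, GRCm38). Rpl3l had 60.3, 55.4, 56.5, 82.4, 33.8 and 93.9 FPKM in MI 1 to MI 6, against 88.1, 115.9, 94.8, 98.2, 107.5 and 108.3 FPKM in control 1 to control 6. All MI libraries except MI 6 were below every control library. Rpl3 had 82.3, 81.1, 99.4, 68.9, 118.1 and 53.0 FPKM in MI 1 to MI 6, against 36.9, 38.6, 38.9, 43.6, 37.5 and 34.1 FPKM in the control libraries. Here all MI libraries were above all control libraries.

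Rpl3 changed by 1.07 on the log2 scale (SE 0.26, adjusted p = 0.0143 by limma) and Rpl3l by -0.74 (SE 0.26, adjusted p = 0.0328 by limma). Relative to the median of all genes these were 0.80 and -1.01 as deposited and 0.70 and -1.11 with median-ratio scaling. The call of Rpl3l was lost in 12 of 33 alternative settings, among them the fits without MI 1, MI 2, MI 3, MI 5, control 2, control 5 or control 6, with its log2 fold change between -1.16 and -0.55. The call of Rpl3 was lost in 2 of 33, with its log2 fold change between 0.68 and 1.19.

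Within a library the FPKM of Rpl3l was 0.286 to 1.77 times that of Rpl3 in MI, 0.250 to 1.94 times in HXP and 2.25 to 3.18 times in control hearts. This ratio does not depend on the scaling between libraries, apart from the pseudocount of 1. The mean log2 ratio was -0.42 ± 0.89 in MI, -0.16 ± 1.17 in HXP and 1.39 ± 0.20 in control libraries (SD, n = 6 each). It was lower by 1.81 in MI than in control, a 3.5-fold difference, with 6 of 6 MI libraries below every control library (exact permutation test over all regroupings, two-sided p = 0.00216, adjusted p = 0.0108 over 5 pairs in 3 comparisons). In HXP against control the difference was -1.55, again with 6 of 6 HXP libraries below every control library (exact permutation p = 0.00216, adjusted p = 0.0108). The p of 0.00216 is the smallest that 6 against 6 libraries can give in this two-sided test. HXP and MI differed by 0.26 (exact permutation p = 0.660), within the spread of either group. The call in MI held when any single library was left out, and that in HXP missed the threshold without control 5 or control 6 (adjusted p = 0.0519 by the same exact test in both).

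Markers of other cells differed among the same libraries. MI 5, with the lowest MI ratio, held the lung epithelium markers and the highest fibroblast and macrophage sums, with a cardiomyocyte sum of 11010 FPKM, and without it the difference from control was -1.54 with all remaining MI libraries still below every control library. HXP 6 had a ratio of 1.89, below that of every control library, with fibroblast and matrix markers at 90.2 FPKM, macrophage markers at 101 FPKM and cardiomyocyte markers at 11639 FPKM, each below the lowest control library. The skeletal muscle markers summed to 324 to 626 FPKM in MI, 229 to 552 FPKM in HXP and 598 to 677 FPKM in control libraries, so that every HXP library and every MI library except MI 4 lay below all control libraries. Nearly all of that sum was Ckm, the muscle creatine kinase, which heart muscle also expresses (445 ± 95.6 FPKM in MI, 364 ± 118 FPKM in HXP and 627 ± 27.2 FPKM in control libraries). The sum does not speak for the whole list. Of its 5 tested markers 2 were called higher and 1 lower in MI than in control, with a median log2 fold change of 0.82. In HXP against control none was called and the median was 0.32. The part of tissue makeup in the ratio was not tested in any library.

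**Figure D2:**
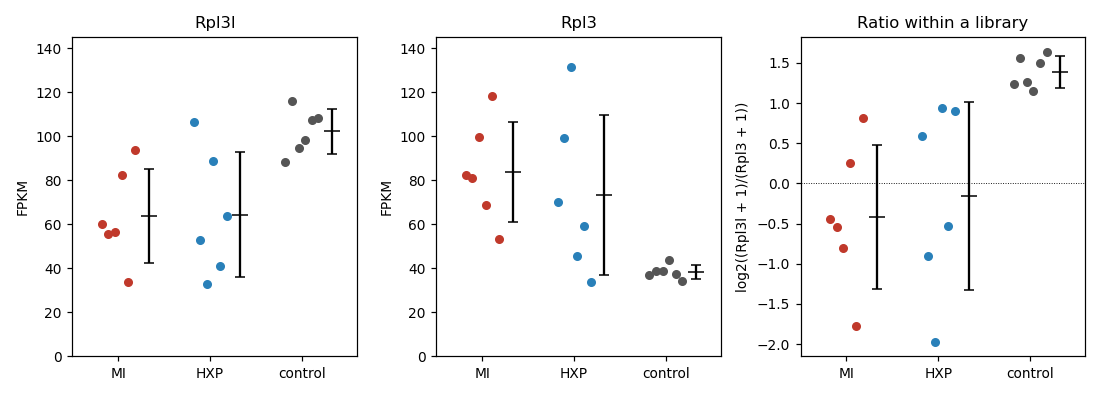
FPKM of Rpl3l (left) and Rpl3 (middle) and their log2 ratio with a pseudocount of 1 (right), 1 point per library, in MI, HXP and control hearts, with mean and SD beside the points (n = 6 each). Every MI and HXP library has a ratio below all 6 control libraries, although Rpl3l alone overlaps between the groups, and the spread is wider in MI and HXP than in control.

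The other paralog pairs differed less. Rps27l, a p53-inducible copy of Rps27, stood at 0.635 to 1.68 times the level of Rps27 in MI, 0.511 to 0.712 times in HXP and 0.762 to 1.47 times in control hearts. The log2 ratio of Rps27l to Rps27 was lower by 0.75 in HXP than in control, with 6 of 6 HXP libraries below every control library (exact permutation test, adjusted p = 0.0108), and by 0.53 in HXP than in MI, 4 of its 6 libraries lying below all MI libraries (exact permutation test, adjusted p = 0.0433). In MI against control it differed by -0.22 (exact permutation test, adjusted p = 0.655). Rps27 shares most of its sequence with Rps27rt, so the split of reads between these genes is uncertain. The difference of Rps27l/Rps27 between HXP and MI missed the threshold without MI 1, MI 4, MI 5, HXP 1, HXP 2, HXP 3, HXP 4 or HXP 5 (adjusted p of 0.0519 to 0.0928 by the exact test). That between MI and control was past it without MI 4 (-0.41, adjusted p = 0.0487 by the exact test).

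Rpl36al, a copy of Rpl36a, stood at 1.20 to 1.73 times the level of Rpl36a in MI, 1.05 to 1.62 times in HXP and 1.52 to 1.72 times in control hearts. The log2 ratio was lower by 0.32 in HXP than in control (5 of 6 HXP libraries below every control library, exact permutation test, adjusted p = 0.0244) and differed by -0.26 between MI and control (5 of 6 below, adjusted p = 0.0603 by the same exact test). The log2 ratio of Rpl7l1 to Rpl7 was lower by 0.27 in HXP than in control (5 of 6 below, exact permutation test, adjusted p = 0.0433). Without MI 6 the Rpl36al/Rpl36a difference between MI and control was -0.33 (adjusted p = 0.00812 by the exact test), without control 6 that between HXP and control was -0.31 (adjusted p = 0.0519), and the Rpl7l1/Rpl7 difference missed the threshold without HXP 1, HXP 2, HXP 3, HXP 4, control 4, control 5 or control 6. Rpl22l1 and Rpl22, of which the second represses the first in other mouse tissues, showed no called difference, with log2 ratios of -1.86 ± 0.28 in MI, -1.97 ± 0.24 in HXP and -1.90 ± 0.13 in control libraries.

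Comparing HXP with MI, no ribosomal protein gene was called by limma (0 of 88, and 0% of the 13710 genes tested). At an unadjusted p below 0.05 there were 2 members, and 1891 of all genes. The median log2 fold change was -0.07 over the members and -0.12 over all genes, with 24 of 88 members positive. The sign of the members' median turned without HXP 5 and HXP 6 (0.09, with 64 members positive, beside -0.01 over all genes). It also turned with median-ratio scaling of all libraries (0.09, with 55 positive, beside -0.0024) and with the run of library numbers as a covariate (0.04, with 54 positive, beside -0.07). The median therefore gave no direction for the members. HXP 1, HXP 3, HXP 4 and HXP 6 were in a run of library numbers that held no MI library. The summed level of the members was 8937 ± 2802 FPKM in HXP and 9719 ± 1709 FPKM in MI, and the HXP libraries, from 5660 to 11920 FPKM, spanned nearly the whole range of the MI and control libraries. Rps27 had the highest fold change (log2 fold change 0.34, SE 0.30), followed by Rpl36a-ps1 (0.22), Rps25 (0.17), Rps24 (0.16), Rpl9-ps6 (0.16) and Rps15a (0.15). The lowest were Rpl36 (-1.37, SE 0.67), Rplp1 (-1.10, SE 0.49), Rplp2 (-1.03, SE 0.49), Rpl27a (-0.75), Rpl13 (-0.69) and Rpl13a (-0.62). With standard errors of this size, differences of about the observed size could not be told from 0.

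Of those 6 genes, Rpl36, Rplp1, Rplp2 and Rpl27a were below 0.5 times their control median in HXP 5 and HXP 6. Rpl13 and Rpl13a were so in HXP 6 alone, and none of the 6 was in another HXP library. Rplp1, Rplp2 and Rpl36 were reduced to a lesser degree in HXP 4. Rplp1 had 685, 860, 799, 326, 148 and 63.6 FPKM in HXP 1 to HXP 6, against 521 to 1009 FPKM in MI and 446 to 531 FPKM in control libraries. Rplp2, its partner in the stalk, had 74.4, 76.8, 68.4, 41.0, 10.6 and 5.23 FPKM in HXP 1 to HXP 6, against 53.8 to 89.7 FPKM in MI and 48.5 to 59.5 FPKM in control libraries. Rpl36 had 359, 313, 256, 169, 29.0 and 8.80 FPKM in HXP 1 to HXP 6, against 191 to 419 FPKM in MI and 194 to 240 FPKM in control libraries. For all 3 genes the first 3 HXP libraries lay above every control library and the last 3 below every control library. Rplp0, which anchors the stalk to the ribosome, had 239 FPKM in HXP 6 and 310 to 506 FPKM in the other HXP libraries, against 375 to 481 FPKM in MI and 299 to 334 FPKM in control libraries, so that it was less reduced there than its partners.

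**Figure D3:**
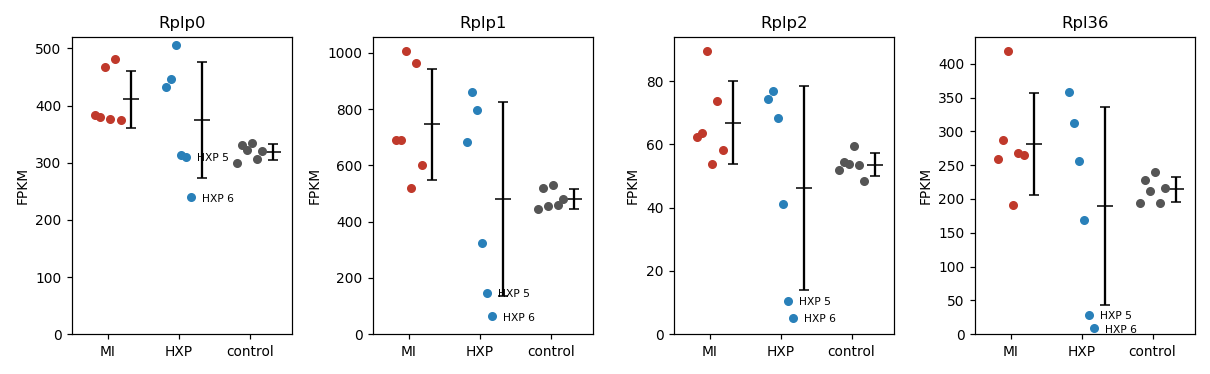
FPKM of the stalk genes Rplp0, Rplp1 and Rplp2 and of Rpl36, 1 point per library, in MI, HXP and control hearts, with mean and SD beside the points (n = 6 each). HXP 5 and HXP 6 are far below every MI and control library for Rplp1, Rplp2 and Rpl36, and HXP 6 is the lowest library for Rplp0.

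Only some members were low in these libraries. In HXP 6, 14 of 88 members (15.9%) were below 0.5 times their control median, beside 14.2% of all genes, and in HXP 5 6 of 88 members (6.82%), beside 5.92% of all genes. In every other library at most 1 member was. The standard deviation over members of the log2 difference from the control mean was 0.63 in HXP 5 and 0.80 in HXP 6, against at most 0.47 in the other libraries. The median difference of the members was 0.27 in HXP 5, above all control libraries, and 0.01 in HXP 6, within their range of -0.11 to 0.15, beside 0.04 and -0.11 for all genes.

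GC content moved with the low values over the whole transcriptome. The 3294 genes with a GC content of 55% or more had a median log2 difference from the control mean of -0.21 in HXP 5 and -0.48 in HXP 6, and the 10398 genes below 55% had 0.09 and -0.06. Among the members, the 21 with 55% or more had medians of 0.12 in HXP 5 and -0.30 in HXP 6, and the 67 others had 0.28 and 0.05. The split was not complete, since Rpl27a, with 48.5% GC, had 18.7 and 12.6 FPKM in HXP 5 and HXP 6, against 38.3 to 56.7 FPKM in control libraries. The part of GC content in these values was not tested beyond the correction given in the closing part.

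**Figure D4:**
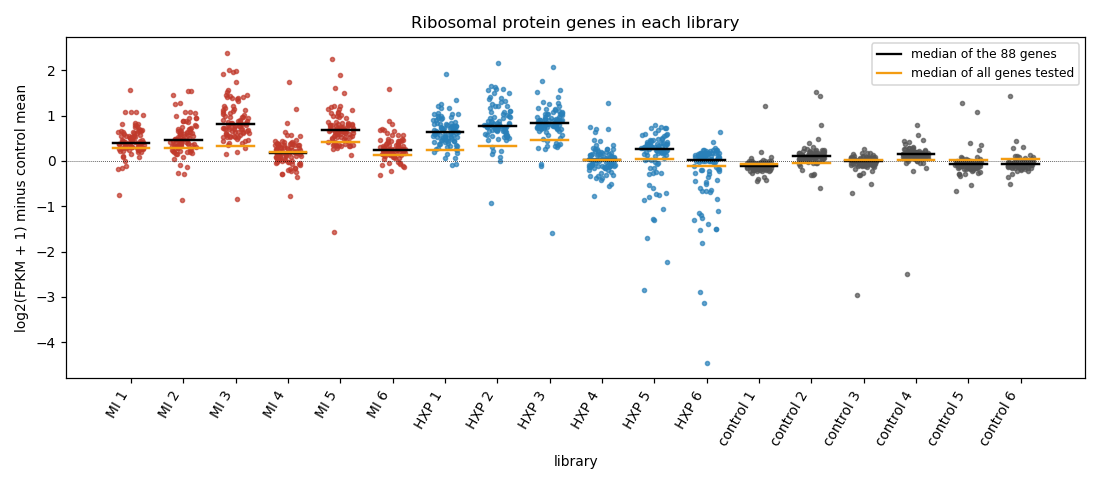
Difference of log2(FPKM + 1) from the control mean for each of the 88 tested members (points) in each of the 18 libraries, with the median of the members in black and of all genes tested in orange. The members' median lies above that of all genes in 5 of the 6 MI libraries and in HXP 1, HXP 2, HXP 3, HXP 5 and HXP 6, and the lowest points of HXP 5 and HXP 6 reach far below all others except Rpl29 in control 3 and control 4.

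On average HXP hearts had a higher median level of ribosomal protein genes than control hearts, with too wide a spread for any member to be called. Not all HXP libraries shared the rise. The members summed to 10631, 11741 and 11920 FPKM in HXP 1 to HXP 3, above all control libraries (6410 to 7553 FPKM). In HXP 4 to HXP 6 they summed to 6688, 6980 and 5660 FPKM, within or below the control range. By the members' median log2 difference, HXP 5 (0.27) was above that range and HXP 4 (0.02) and HXP 6 (0.01) were within it. By limma 0 of 88 members passed (0.314% of all genes did), with 56 members and 4541 of all genes at an unadjusted p below 0.05 and a smallest adjusted p among members of 0.0808. The median log2 fold change was 0.39 over the members and 0.16 over all genes. All 6 HXP libraries lay above all 6 control libraries for 8 members, where 1.13% of all genes did: Rpl4, Rpl7, Rpl17, Rpl23a, Rpl34, Rpl35a and Rpl36a of the large subunit and Rps25 of the small subunit. Rpl36a, a protein near the tRNA exit site, had a lowest, median and highest level of 22.6, 29.6 and 42.4 FPKM in HXP and of 17.8, 18.5 and 22.0 FPKM in control libraries (log2 fold change 0.66). Rpl4 had 193, 244 and 347 FPKM in HXP and 168, 179 and 186 FPKM in control libraries (log2 fold change 0.47). Rpl3l had 106.3, 52.7, 32.9, 88.7, 40.9 and 63.7 FPKM in HXP 1 to HXP 6 (log2 fold change against control -0.77, limma adjusted p = 0.0963).

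The number of calls depended on HXP 6 and on the scaling. Without HXP 5 and HXP 6, 63 of 88 members were called against control, all higher, beside 43.5% of all genes, and without HXP 6 alone 54 were, beside 30.9% of all genes. In the fit without both, Rpl3 differed by 1.06 on the log2 scale (adjusted p = 0.00911 by limma) and Rps6 by 0.61 (adjusted p = 0.00896 by limma). Rplp1 was then at 0.38, Rplp2 at 0.24 and Rpl36 at 0.31, and none of these was called. Rplp0, the other stalk gene, was called against control in 1 of 33 settings, with log2 fold changes between -0.05 and 0.39 over all of them. With all libraries and median-ratio scaling, 5 members (Rpl3, Rpl36a, Rpl10, Rpl34 and Rps4x) were higher and 2 (Rpl27a and Rps10) lower, beside 9.45% of all genes. With quantile normalization 25 were higher, beside 8.98%, and with the GC correction 12 were higher, beside 8.02%. Both comparisons with control use the same 6 control libraries, so their values are given side by side and not as support for each other.

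Among other genes of the translation machinery, all that were called in MI against control as deposited were higher. Of the ribosomal proteins outside the symbol rule, Rack1, a scaffold on the small subunit, was called higher in MI (51.3 ± 5.91 FPKM in MI and 36.6 ± 2.33 FPKM in control libraries, log2 fold change 0.47, limma adjusted p = 0.0266). Its call was lost without MI 5 or control 2 (limma adjusted p of 0.0514 to 0.0613) and with median-ratio scaling (log2 fold change 0.08, limma adjusted p = 0.547). The call was also lost with quantile normalization, the length correction and the GC correction (limma adjusted p = 0.157, 0.175 and 0.173). Fau, which encodes a small-subunit protein fused to a ubiquitin-like protein, was not called (log2 fold change 0.77). Of 11 elongation factors 4 were higher and none lower. Eef1a1, which delivers aminoacyl-tRNA to the ribosome, had 324, 593 and 845 FPKM in MI and 212, 220 and 270 FPKM in control libraries, with no overlap (log2 fold change 1.30, limma adjusted p = 0.0143). Eef1a2, the isoform of adult muscle and neurons, had 371, 419 and 524 FPKM in MI and 456, 467 and 517 FPKM in control libraries and was not called as deposited (log2 fold change -0.16) or scaled to non-mitochondrial FPKM (-0.18). It was called lower in MI in the other 4 treatments, with log2 fold changes of -0.36 with quantile normalization, -0.56 with median-ratio scaling, -0.42 with the length correction and -0.52 with the GC correction (limma adjusted p = 0.0332, 0.0215, 0.0338 and 0.0274).

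Of 39 initiation factors 16 were higher in MI and none lower, led by the poly(A)-binding protein Pabpc1 (31.9 ± 8.54 FPKM in MI and 16.0 ± 2.27 FPKM in control libraries, log2 fold change 0.92, limma adjusted p = 0.0143) and Eif1a (log2 fold change 0.78). Of 57 ribosome biogenesis genes 25 were higher and none lower, with Ubtf, a factor of RNA polymerase I, at 0.60 and Gar1, of the pseudouridylation complex, at 0.57. Of 17 mTOR and TOP regulators 5 were higher, with Myc at 0.63 and its partner Max at 0.56, and of 11 nascent chain and quality control factors 3 were higher. These shares lie at or below the 40.1% of all genes called higher, apart from biogenesis (25 of 57) and initiation (16 of 39), which are near it. With median-ratio scaling the same lists held 7 higher and 23 lower genes in place of 54 higher and none lower, so these lists have no direction that holds under both. Eef1a1 was higher in all 6 treatments of the values (0.90 with median-ratio scaling). Between HXP and MI no gene of these lists was called.

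Reads of some members may be shared with processed pseudogenes, of which the annotation holds 226 by symbol. For 8 members more than 20% of the recovered reads of the gene and its own pseudogenes together were assigned to the pseudogenes, among them Rpl17 at 75.1%, Rpl7a at 63.9%, Rps27a at 62.4% and Rpl21 at 57.7%. The levels of these genes are uncertain, as is the split among Rps27, Rps27rt and other close copies. The pseudogenes' summed level was 1732 ± 266 FPKM in MI, 1661 ± 413 FPKM in HXP and 1225 ± 82.8 FPKM in control libraries. Adding their reads to the members left the number of calls at 50 in MI against control, beside 43.3% of all genes.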

How the data were processed

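Each library's deposited file lists 34150 Ensembl genes. No header names the unit, and the deposited values were taken as FPKM because multiplying them by merged exon length gave whole multiples of a library-specific step (97.7% to 98.1% of values checked, within 0.1 of a read). Per the submitters' processing notes the build was GRCm38 and limma was used, while the sources used here do not give the aligner, the counting tool or the annotation. IDs were matched to GENCODE M21 (34097 matched, 53 not).

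The analysis used log2(FPKM + 1) of 13710 genes whose mean reached 0.5 FPKM. All 3 groups entered 1 limma fit (limma 3.58.1, R 4.3.3, trend on, two-sided tests, Benjamini-Hochberg adjusted p below 0.05), and fold changes are compressed for genes near 1 FPKM. At 75.8 to 81.1 M recovered reads per library, the spread between libraries limits precision for all but the lowest genes. Paralog ratios were compared by exact permutation over libraries. Alternatives were other scalings, filters, a pseudocount of 0.1, corrections of the trend with length or GC content (lowess, span 0.3), covariates and leaving out libraries. GC content was that of the longest protein-coding transcript, where the plan named merged exons. Settings chosen after seeing the data were the pseudogene reads, median-ratio scaling or the leaving out of HXP 5 and HXP 6 combined with the GC correction, median-ratio scaling with the compared groups only, and leaving out MI 4 and MI 5.

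Named genes were a fixed list (the paralog pairs, Rplp0, Rplp1, Rplp2, Rpsa, Rps6, Rpl5, Rpl11, Rpl13a, Rps19, Rpl4, Rps27a, Rps19bp1, Fau and Rack1, with 1 further gene that is not reported here), the 6 highest and 6 lowest members of each comparison, and the extremes of each companion list. Rpl10-ps3, Rps3a1, Rps15, Rpl10, Rpl34, Rpl23a, Rpl35a, Rpl7a, Rpl21 and Rps4x were named after their values were seen, in places where a count is spelled out. The members and lists were chosen with earlier results of these data known. The fit was tested on simulated data. Plots were made in Python 3.11.15 with matplotlib 3.10.9.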

Additional observations from a re-analysis of the deposited data

Results flagged for a closer look

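Of 153 groups of 6 libraries, which did not cover every tested member, 9 had 1 library far from the other 5. That is near the share of about 1 in 20 that chance gives. In MI 3 the flagged values were Rpl11 at 104 FPKM (next 71.8), Rps27a at 39.02 FPKM (next 17.4) and Rps27l at 65.0 FPKM (next 45.1). Rpl17 stood out in MI 5 at 138 FPKM (next 55.6) and in HXP 2 at 129 FPKM (next 58.9). Rps2 stood out in HXP 1 at 290.2 FPKM (next 189) and in control 5 at 241 FPKM (next 188). Rpl13 stood out in control 5 at 98.3 FPKM (next 47.6), and Rps27rt in control 2 at 103 FPKM (next 46.3). Rpl17 and Rps27a are among the members with most reads in pseudogenes, and Rps27rt is a close copy of Rps27. The part of read assignment in these values was not tested.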

How the results depend on the processing

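The number of members called depended on the setting, and the share of all genes called is given in brackets. In MI against control it was 50 as deposited (43.3%), 19 with quantile normalization (30.5%) and 4 with median-ratio scaling (32.5%). It was 24 with no filter (12.1%) and 76 with the compared groups only (59.4%). With the run of library numbers as a covariate it was 33 (30.8%), and within the last run of 10 libraries 0 (0.568%). It was 19 with the length correction (30.6%) and 11 with the GC correction (31.6%). With median-ratio scaling and the length correction it was 9 (33.8%), with that scaling and the GC correction 6 (35.6%). It was 12 with median-ratio scaling and the compared groups only (45.6%), and 13 with the GC correction without HXP 5 and HXP 6 (36.2%). It was 0 without MI 4 and MI 5 (0%), and 14 to 63 when leaving out each library (19.1% to 50.8%). In HXP against control it was 0 as deposited (0.314%), 25 with quantile normalization (8.98%) and 7 with median-ratio scaling (9.45%). It was 24 and 12 with the length and GC corrections (8.96% and 8.02%), and 21 and 10 with these and median-ratio scaling (11.1% and 10.3%). Without HXP 5 and HXP 6 it was 63 (43.5%), and 31 with the GC correction as well (26.8%). It was 9 with median-ratio scaling and the compared groups only (5.43%), and 0 to 54 when leaving out each library (0% to 30.9%). In HXP against MI it was 0 when leaving out any library (at most 0.518%). The companion lists' calls (54 in MI against control) were 27 with quantile normalization and 30 with median-ratio scaling, and in HXP against control (0) were 10, 7 and, scaled to non-mitochondrial FPKM, 1. The cause of these shifts was not tested.

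Single genes turned sign as follows, against positive main values in MI against control. Rpl7l1 was -0.011 with quantile normalization and -0.079 with median-ratio scaling, -0.060 and -0.055 with that scaling and the length or GC correction, and -0.080 with it and the compared groups only. In the same 4 median-ratio settings Rpl7 was -0.050, -0.010, -0.0014 and -0.051. With median-ratio scaling, alone, with the length correction and with the compared groups only, Rpl5 was -0.037, -0.024 and -0.038, and Rpl36al alone and with the compared groups was -0.016 and -0.017. Rps10, near 0 as deposited, was called lower at -0.38 with median-ratio scaling and the GC correction and at -0.32 with the compared groups only, as was Rps2 at -0.33. Fau in HXP against control was 0.82 without HXP 5 and HXP 6 and 0.61 with the GC correction as well, both called.

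With the replicate number as a block, 55 members were called in MI against control, beside 40.9% of all genes. In each other comparison 0 members were called, beside 0.00729% of all genes. Nothing states whether equal numbers mark a pair. Same-numbered deviations correlated between -0.0026 and 0.20 for MI and control, -0.31 and 0.63 for HXP and MI, and -0.14 and 0.09 for HXP and control. Correlations of this kind cannot show whether the libraries were paired. In the exact sign-flip test of paired ratio differences the smallest adjusted p was 0.0781, so the differences of -1.81 (Rpl3l/Rpl3, MI against control), -1.55, -0.32, -0.75 and -0.27 (Rpl3l/Rpl3, Rpl36al/Rpl36a, Rps27l/Rps27 and Rpl7l1/Rpl7, HXP against control) and -0.53 (Rps27l/Rps27, HXP against MI) could not pass. Within the last run of 10 libraries these were -1.50, -2.07, -0.38, -0.70, -0.30 and -0.62, and none passed (exact permutation test, adjusted p of 0.3 to 0.446 over 15 tests). Before adjustment the exact test gave p = 0.0357 for the first (5 MI against 3 control libraries) and 0.238 for the last (HXP against MI). It gave 0.1 for each difference in HXP against control, the smallest p that 2 against 3 libraries can give. Without HXP 5 and HXP 6, Rps27l/Rps27 in HXP against MI was -0.58 (exact permutation test, adjusted p = 0.0893) and Rpl7l1/Rpl7 was -0.32 (adjusted p = 0.0119 by the same exact test). Leaving out each library, the ratio differences in MI against control ranged from -2.05 to -1.54 for Rpl3l/Rpl3, -0.33 to -0.22 for Rpl36al/Rpl36a and -0.41 to -0.11 for Rps27l/Rps27. In HXP against control they ranged from -1.77 to -1.19 for Rpl3l/Rpl3, -0.38 to -0.26 for Rpl36al/Rpl36a, -0.82 to -0.64 for Rps27l/Rps27 and -0.32 to -0.23 for Rpl7l1/Rpl7, and in HXP against MI from -0.61 to -0.34 for Rps27l/Rps27 and -0.27 to -0.17 for Rpl7l1/Rpl7.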
